A study of Caenorhabditis elegans with 6 samples.

Results

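Fatty acid desaturases and elongases are membrane enzymes of the endoplasmic reticulum that shape fatty acids after their synthesis. Desaturases put double bonds into the acyl chain, and elongases of the ELO family catalyse the first step that lengthens it. *C. elegans* makes its own polyunsaturated fatty acids along such a chain of enzymes, and the intestine, where fat is also stored, is a main site of this metabolism. The genes described here are the desaturases *fat-1* to *fat-7* and the elongases *elo-2*, *elo-5* and *elo-6*. They were picked by name, as members of these enzyme families, with earlier results of these data known, and make up 10 of the 20351 genes counted. Of these 10 genes, 9 passed the filter on low counts and *fat-7* did not.

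The study compared L1 larvae from mothers fed *elt-2* RNAi bacteria with L1 larvae from mothers fed bacteria carrying the empty vector, with 3 libraries in each group (replicates A, B and C). ELT-2 is a GATA transcription factor of the intestine that activates intestinal genes in the embryo. The comparison asks which genes respond to it at the L1 stage. All animals were of the wild-type strain N2. About 10000 adults per culture were fed from day 1 of adulthood for 24 hours and bleached, and their embryos hatched overnight in S-Basal, a buffer without food, so both groups were unfed larvae whose mothers, not they themselves, had eaten the RNAi bacteria. RNA came from whole worms, in which fewer intestinal cells and less RNA per intestinal cell cannot be told apart. The libraries were 3SEQ libraries, read near the 3' end of polyadenylated RNA, so a count stands roughly for a transcript and was not divided by gene length.

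Total counts ranged from 13700707 to 22124319 per library, and the 100 most abundant genes took 79.5% to 84.7% of them. Levels are given as CPM, counts relative to the library total, after the libraries were brought to a common scale by TMM (trimmed mean of M-values). The scaling factor of control B was 0.617, against 0.885 to 1.39 in the other libraries, so values of control B were raised the most by scaling. The RNAi target *elt-2* (C33D3.1) had 1.94, 3.25 and 1.35 CPM in controls A, B and C and 1.05, 1.53 and 2.06 CPM under the *elt-2* RNAi label. These groups overlapped, with a log2 fold change of -0.48 (95% confidence interval -1.49 to 0.53, adjusted p = 0.66, edgeR), so a fall of the target itself was not detectable in these counts and the groups are named by their labels. The study reports reduced *elt-2* RNA in L1 progeny by qRT-PCR, and larval arrest, after this RNAi. Those data were not analysed here. Markers of 5 tissues were present, and none of the 29 marker genes was at 0 in any library.

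In the control larvae, the elongases of branched-chain fatty acids and the Δ12 desaturase were the most abundant of the 10 transcripts. *elo-6* had a control mean of 54.1 CPM ± 38.4 (SD, n = 3), *fat-2* 48.8 ± 14.5 and *elo-5* 35.0 ± 9.11. *fat-3* (18.1 ± 7.10), *elo-2* (17.3 ± 4.32), *fat-1* (17.1 ± 3.89) and *fat-4* (11.0 ± 4.09) followed, then the Δ9 desaturases *fat-6* (9.77 ± 4.21) and *fat-5* (5.86 ± 2.94). The control ranges of each neighbouring pair in this order overlapped from *elo-6* down to *fat-5*. Within each control library, *fat-2* stood above *elo-5*, *elo-5* above *fat-3*, *fat-1* above *fat-4*, *fat-4* above *fat-6* and *fat-6* above *fat-5*. The order of *elo-6* and *fat-2*, of *fat-3* and *elo-2* and of *elo-2* and *fat-1* differed between control libraries. By control range, *fat-7* alone stood clear below its neighbour, with a single read in 1 library. Among the 10063 genes tested, the mean level of the 9 measured genes lay between the 54th percentile (*fat-5*) and the 91.2nd percentile (*elo-6*). The control libraries differed least in *fat-1* (coefficient of variation 22.8%) and most in *elo-6* (70.9%).

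**Figure D1:**
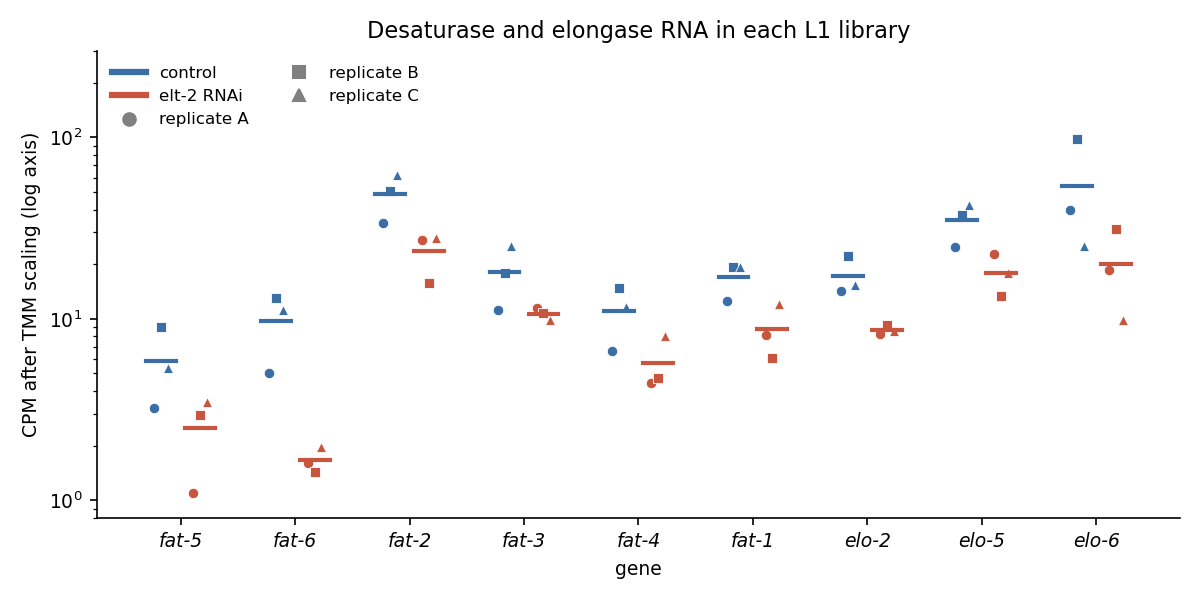
CPM after TMM scaling on a log axis for the 9 desaturase and elongase genes that passed the filter. Each symbol is 1 library (blue control, red labelled *elt-2* RNAi, shape for the replicate letter) and each bar the mean of 3, and the control and *elt-2* RNAi symbols stand furthest apart in *fat-6* (means 9.77 and 1.67) while *elo-6* spreads widely within each group; *fat-7*, with 1 read in all, is not drawn.

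All 9 genes tested had a log2 fold change below 0 under the *elt-2* RNAi label, and 1 of them, *fat-6*, passed the false discovery rate of 10%. None was called higher, and none had both a higher level and an unadjusted p under 0.05 (edgeR). Across all genes tested, 2.61% were called lower and 0.199% higher. The median log2 fold change of the 9 genes was -0.99, against 0.06 for all genes tested, of which 46.3% were below 0. The reads of the 10 genes together came to 151, 282 and 218 CPM in controls A, B and C and to 103, 95.7 and 99.5 CPM under the *elt-2* RNAi label. Every control library was thus above every *elt-2* RNAi library, and the latter lay close to each other. In CPM of the plain total counts, without TMM, the 10 genes came to 181, 174 and 193 in the controls and 143, 109 and 96.0 in the others, which also did not overlap. Besides *fat-6*, 6 genes had an unadjusted p under 0.05 (*fat-5*, *fat-2*, *fat-1*, *elo-2*, *elo-5* and *elo-6*), with adjusted p-values of 0.256 to 0.333 (edgeR), and *fat-4* and *fat-3* had adjusted p-values of 0.348 and 0.428. An unadjusted p under 0.05 was found with a lower level for 10.2% of all genes and with a higher level for 4.33%. Groups without overlap were found for 5 of the 9 genes (*fat-6*, *fat-2*, *fat-1*, *elo-2* and *elo-5*), all lower, against 10.9% of all genes lower and 7.08% higher.

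The scaling moved all of these values together. With total counts in place of TMM the median of all genes moved up by 0.37, to 0.42, an upward shift that touches every fold change given here, and the median of the 9 genes was -0.57. Each of the 9 remained below 0 and below the median of all genes under both scalings, and *fat-6* was the only one called under either. Without control B, the library most raised by TMM, the median of the 9 genes was -0.77.

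Tissue markers were set beside these values. The summed level of 8 intestinal markers ranged from 491 to 1264 CPM in controls and from 76.6 to 374 CPM under the *elt-2* RNAi label, and 2 of the 8 were called lower (*vha-6* and *cpr-6*). The other 6 were not called, and among them *elt-7* (log2 fold change 0.74) and *ges-1* (0.15) lay above 0 while *act-5*, *ifb-2*, *pept-1* and *asp-1* lay between -2.88 and -1.13. Most of the summed level came from *asp-1* (441.6 and 59.9 CPM in the control and *elt-2* RNAi groups) and *act-5* (221 and 99.5 CPM). The summed levels of the 5 body wall muscle markers (847 to 5258 against 572 to 1577 CPM), 4 pharyngeal markers (165 to 421 against 98.4 to 188 CPM), 6 neuronal markers (77.8 to 139 against 55.1 to 80.1 CPM) and 6 hypodermal markers (110 to 238 against 181 to 618 CPM) overlapped, with no gene called. Median log2 fold changes were -1.16 for intestine, -1.07 for body wall muscle, -0.92 for pharynx, -0.83 for neurons and 0.32 for hypodermis. The part of tissue proportions in the lower desaturase and elongase values was not tested.

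**Figure D2:**
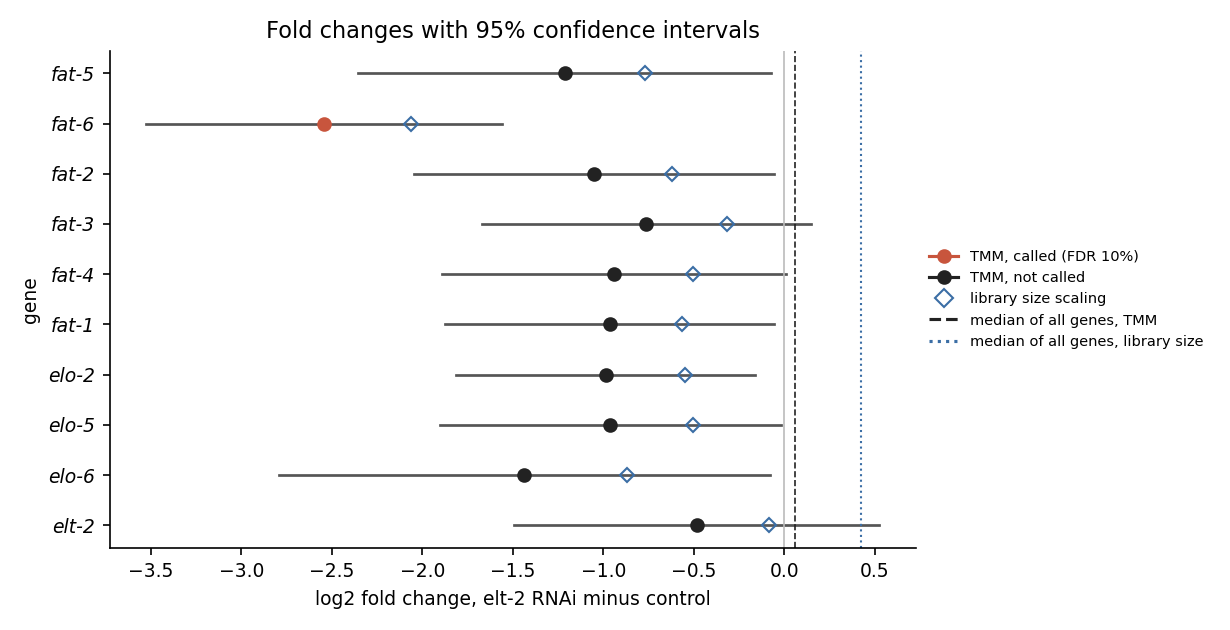
Log2 fold change of each gene, libraries labelled *elt-2* RNAi minus control, with the 95% confidence interval of the edgeR fit (circles, TMM scaling) and the estimate with library size scaling (diamonds). The interval of *fat-6* (-3.52 to -1.56) lies furthest to the left, and those of the other desaturases and elongases end near 0. The RNAi target *elt-2* is drawn as well, with an interval from -1.49 to 0.53. The dashed and dotted lines mark the medians of all genes (0.06 and 0.42).

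The Δ9 desaturases make monounsaturated fatty acids and so open the path to all unsaturated ones. *fat-6* (VZK822L.1, chromosome IV of WBcel235 from 11913692 to 11915687) encodes a stearoyl-CoA desaturase that forms oleic acid. It had 83, 161 and 174 counts in controls A, B and C and 32, 32 and 42 counts under the *elt-2* RNAi label. In CPM these were 5.04, 13.1 and 11.2 against 1.60, 1.44 and 1.97. The groups did not overlap with either scaling, and the *elt-2* RNAi libraries agreed closely with each other while control A was the lowest control. The fall of *fat-6* had a log2 fold change of -2.54 (interval -3.52 to -1.56, adjusted p = 0.021, edgeR), and the control mean was 5.86 times the other. Leaving out *elt-2* RNAi B ended the call (log2 fold change -2.44, adjusted p = 0.117, edgeR), while leaving out any of the other 5 libraries kept it, with log2 fold changes between -2.85 and -2.27.

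*fat-5* (W06D12.3, chromosome V from 17725004 to 17726818), the Δ9 desaturase that prefers palmitic acid, had 3.22, 9.03 and 5.33 CPM in controls A, B and C and 1.10, 2.96 and 3.47 CPM under the *elt-2* RNAi label. The groups overlapped after TMM by the low value of control A but did not when scaled by library size, and the log2 fold change of -1.21 had an interval from -2.35 to -0.07 (adjusted p = 0.313, edgeR). On the opposite strand *fat-5* overlaps *twk-42*, a potassium channel gene with means of 1.50 and 0.558 CPM in the control and *elt-2* RNAi groups. Without stranded counting, reads within the shared stretch could not be assigned to either gene. Whether that stretch holds the 3' ends was not examined. *fat-7* (F10D2.9, chromosome V from 7151353 to 7153146) encodes a stearoyl-CoA desaturase closely related to that of *fat-6*. It had 1 count in control C and 0 in the other 5 libraries, where 0 counts allow a level of up to 0.135 to 0.244 CPM (3 counts, counting error only). No fold is given, and a difference was not detectable at this depth. Reads shared by *fat-6* and *fat-7* may have been lost or assigned to either gene, which was not tested, so the zero of *fat-7* and the level of *fat-6* are uncertain to that extent.

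Within the Δ9 desaturases, the share of *fat-6* does not depend on how the libraries were scaled. It was 61.0%, 59.2% and 67.4% of the Δ9 reads in controls A, B and C, and 59.3%, 32.7% and 36.2% under the *elt-2* RNAi label. The share in *elt-2* RNAi A (Wilson interval 46.0% to 71.3%, on 54 reads) lay among the controls. The intervals of B (24.2% to 42.4%) and C (28.0% to 45.3%) lay under the lowest control interval, which began at 52.6%. These intervals cover counting error only, not the spread between libraries, and as groups the shares overlapped. In *elt-2* RNAi A, *fat-5* was low as well, with 22 counts. Of the reads of all 10 genes, *fat-6* took 3.34%, 4.65% and 5.13% in the controls and 1.55%, 1.50% and 1.98% under the *elt-2* RNAi label. These shares did not overlap, and *fat-6* was the only one of the 9 genes for which they did not. A like figure for shares was not computed over all genes. For CPM, a different measure, the groups did not overlap for 10.9% of all genes tested lower and 7.08% higher. The shares come from the same counts as the call of *fat-6* and are not separate support for it. The other 8 of the 9 genes had overlapping shares, so no difference in their part of the reads was detectable. With 3 libraries a group, overlap cannot show that the make-up was unchanged. The share of *elo-6* alone ran from 11.5% to 34.6% within the controls.

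**Figure D3:**
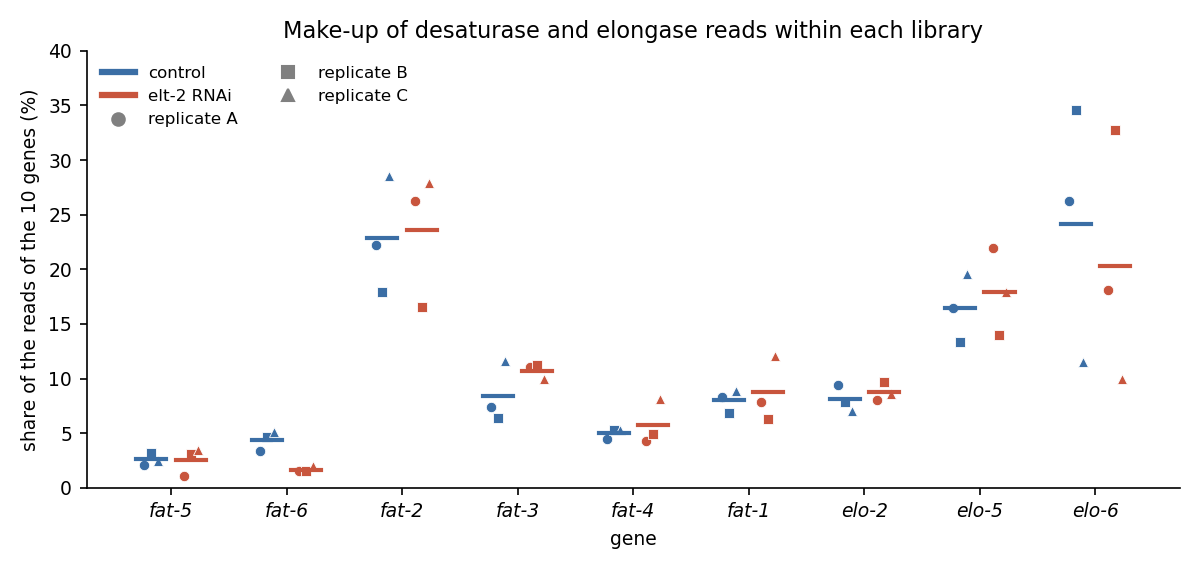
Share of each gene in the reads of the 10 desaturase and elongase genes of the same library, in percent, which no scaling can change. Symbols are libraries (shape for the replicate letter) and bars means of 3; *fat-6* takes 3.34% to 5.13% in controls and 1.50% to 1.98% under the *elt-2* RNAi label, and in *elo-6* replicate B is the highest and C the lowest of both groups.

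The desaturases that act after oleic acid, *fat-1* to *fat-4*, had log2 fold changes between -1.05 and -0.76, and none was called. FAT-2, the Δ12 desaturase, turns oleic into linoleic acid. *fat-2* (W02A2.1, chromosome IV from 13323873 to 13326395) had 33.5, 50.5 and 62.3 CPM in controls A, B and C and 27.1, 15.8 and 27.8 CPM under the *elt-2* RNAi label. The groups did not overlap after TMM but did when scaled by library size. Its log2 fold change was -1.05 (interval -2.04 to -0.06, adjusted p = 0.315, edgeR). FAT-1 is the ω-3 desaturase, an enzyme that mammals lack. *fat-1* (Y67H2A.8) lies just before *fat-2* on the same strand of chromosome IV, from 13315644 to 13318811, with 5061 bases between them. It had 12.6, 19.3 and 19.3 CPM in the controls and 8.11, 6.06 and 12.0 CPM in the others, without overlap under either scaling. The log2 fold change was -0.96 (interval -1.87 to -0.05, adjusted p = 0.315, edgeR). The counts of *fat-2* were 2.62 to 3.22 times those of *fat-1* in the controls and 2.31 to 3.34 times under the *elt-2* RNAi label, so their ratio overlapped between groups.

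FAT-3, a Δ6 desaturase, and FAT-4, a Δ5 desaturase, complete the long polyunsaturated fatty acids, among them arachidonic and eicosapentaenoic acid. *fat-4* (T13F2.1, chromosome IV from 9799429 to 9802226) is followed on the same strand, after 796 bases, by *fat-3* (W08D2.4, from 9803023 to 9806119). *fat-3* had 11.1, 17.9 and 25.3 CPM in controls A, B and C and 11.4, 10.7 and 9.89 CPM under the *elt-2* RNAi label. Control A lay within the *elt-2* RNAi values, and the log2 fold change of -0.76 (interval -1.67 to 0.15) was the smallest of the 9. *fat-4* had 6.68, 14.8 and 11.6 CPM in the controls and 4.40, 4.72 and 8.06 CPM in the others. Here *elt-2* RNAi C was above control A after TMM, whereas the groups scaled by library size did not overlap, and the log2 fold change was -0.94 (interval -1.89 to 0.01). Neither interval excluded 0, and both allow a fall of over 1.5 on the log2 scale.

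Among the elongases, ELO-2 lengthens palmitic acid to stearic acid, the substrate of FAT-6 and FAT-7. *elo-2* (F11E6.5, chromosome IV from 17466062 to 17467408) had 14.2, 22.2 and 15.4 CPM in controls A, B and C and 8.26, 9.25 and 8.57 CPM under the *elt-2* RNAi label. The *elt-2* RNAi values were within 1 CPM of each other, and the groups did not overlap under either scaling. Its log2 fold change was -0.99 (standard error 0.37, adjusted p = 0.256, edgeR), the smallest p among the genes of the 10 that were not called (unadjusted p = 0.0232). ELO-5 and ELO-6 make monomethyl branched-chain fatty acids, which larvae need to grow past the L1 stage. *elo-5* (F41H10.7, chromosome IV from 5374616 to 5377117) had 24.9, 37.5 and 42.6 CPM in the controls and 22.6, 13.4 and 17.9 CPM in the others. The TMM-scaled groups did not overlap, but those scaled by library size did, and the log2 fold change was -0.96 (interval -1.90 to -0.02, adjusted p = 0.333, edgeR). The opposite strand at *elo-5* holds part of F41H10.3, with means of 10.7 and 8.27 CPM.

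*elo-6* (F41H10.8, chromosome IV from 5386629 to 5388559) varied most. It had 653, 1200 and 390 counts in controls A, B and C and 373, 698 and 211 counts under the *elt-2* RNAi label, or 39.7, 97.6 and 25.1 CPM against 18.7, 31.3 and 9.89 CPM. In both groups replicate B was the highest and C the lowest, so that *elt-2* RNAi B exceeded control C. The log2 fold change of -1.44 had a wide interval (-2.79 to -0.08, adjusted p = 0.314, edgeR), and it was -0.70 without control B. The counts of *elo-6* were 1.59, 2.60 and 0.588 times those of *elo-5* in the controls and 0.825, 2.34 and 0.554 times under the *elt-2* RNAi label. The ratio therefore followed the replicate letter in both groups, and in A alone did it differ much between them.

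Other genes of fatty acid synthesis and use were read from 4 lists. Of 38 such genes, 37 were matched by name in the table and 34 were tested. The log2 fold change was below 0 for 16 and above 0 for 18 of them, with a median of 0.00, and 1 was called lower and 0 higher by edgeR. At an unadjusted p under 0.05, and likewise with the DESeq2 Wald test, 2 were lower (*nhr-80* and *elo-1*) and 0 higher. These counts are close to or under those of all 10063 genes tested, of which 2.61% were called lower, 10.2% were lower at an unadjusted p under 0.05 and 518 were called lower by DESeq2. The called gene was *nhr-80* (H10E21.3), which encodes a nuclear hormone receptor known to promote expression of the Δ9 desaturase genes. It had 1.94, 5.04 and 2.64 CPM in controls A, B and C and 1.00, 1.03 and 0.609 CPM under the *elt-2* RNAi label, with no overlap. Its log2 fold change of -1.85 (standard error 0.47) had an adjusted p of 0.099 in edgeR, just inside the threshold, and the call was lost with library size scaling, with a filter at a mean count of 10, at an adjusted p under 0.05 and without control B, control C or any one of the *elt-2* RNAi libraries.

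Of the other 9 regulators of desaturase genes, none was called. *sbp-1*, the worm SREBP that activates genes of lipid synthesis, had the highest level, with means of 163 CPM ± 39.8 (SD, n = 3) in controls and 113 ± 35.6 under the *elt-2* RNAi label (log2 fold change -0.53, interval -1.56 to 0.49). *mdt-15*, a Mediator subunit that works with SBP-1, had a log2 fold change of -0.31 (interval -1.23 to 0.61). Of the remaining elongases, 4 of 6 were tested and none was called. *elo-1*, whose enzyme lengthens the polyunsaturated chains between FAT-3 and FAT-4, had 18.0, 20.7 and 40.3 CPM in the controls and 10.9, 6.06 and 9.32 CPM in the others. These groups did not overlap after TMM but did when scaled by library size, and its log2 fold change of -1.59 missed the threshold (standard error 0.46, adjusted p = 0.14, edgeR). *elo-9* had a log2 fold change of -0.22 (interval -1.05 to 0.61).

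For the 11 genes of fatty acid synthesis, elongation and electron transfer the median was 0.08 on the log2 scale, with 4 below 0, 7 above and no call. *cytb-5.1*, a cytochrome b5 gene of the kind that passes electrons to desaturases, had means of 29.7 and 45.4 CPM in the control and *elt-2* RNAi groups (log2 fold change 0.61, interval -0.40 to 1.61). *hpo-8*, the dehydratase that follows the ELO enzymes in each elongation round, had means of 36.0 and 26.4 CPM (log2 fold change -0.45, interval -1.31 to 0.42). Of 11 glycerolipid acyltransferase and lipin genes 9 were tested, with a median of -0.33 and no call. The most abundant were *mboa-6*, a membrane-bound acyltransferase gene (309 and 232 CPM, log2 fold change -0.42), and *lpin-1*, the lipin gene (8.97 and 5.95 CPM, log2 fold change -0.59).

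**Figure D4:**
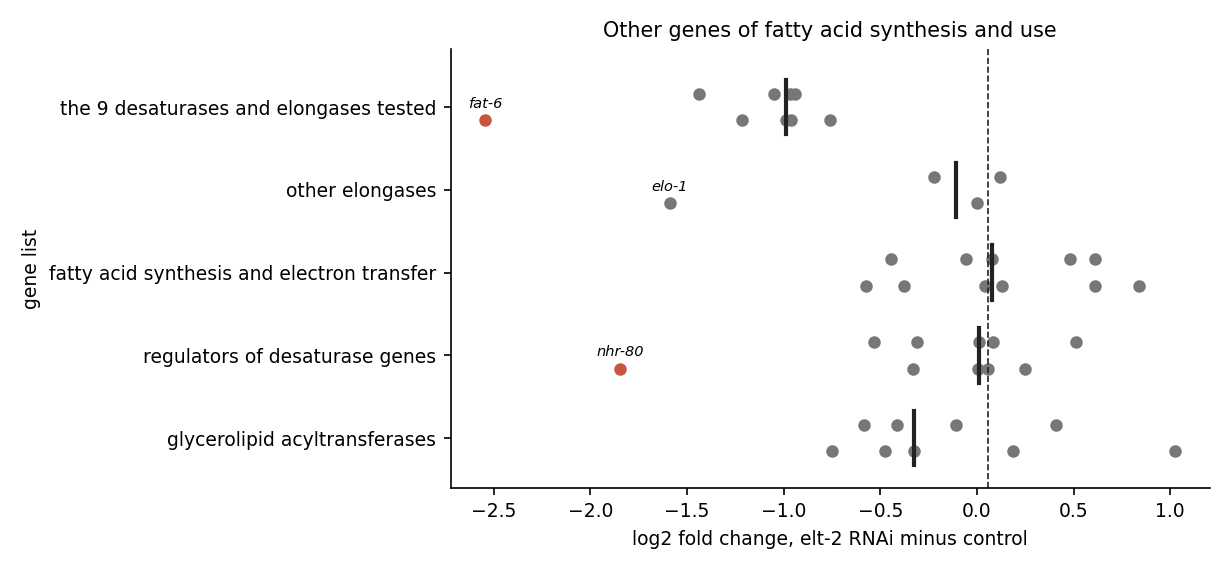
Log2 fold changes, libraries labelled *elt-2* RNAi minus control, of the 9 desaturases and elongases tested and of 34 other genes in 4 lists. Each point is a gene, red where called, the short bars are list medians and the dashed line is the median of all genes (0.06); the 9 genes lie between -2.54 and -0.76 while the other lists spread on both sides of 0.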

How the data were processed

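Reads of 6 3SEQ libraries (3 control, 3 labelled *elt-2* RNAi) were counted per gene by the authors, who deposited whole-number counts for 20351 genes without normalization. The submitters' processing notes name Bowtie 0.12.7. The genome build, annotation, counting tool and use of strand are not given in the sources used here. The study's own rank product test on fractions of uniquely mapped reads was replaced by a count test. Of the gene identifiers, 19870 matched the Ensembl annotation of WBcel235, which gave names and positions.

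Counts were tested with edgeR 4.0.16 in R 4.3.3 (quasi-likelihood F test, TMM, filterByExpr, 10063 genes kept, Benjamini-Hochberg over all of them, calls at a false discovery rate of 10%). Standard errors were derived from the fold change and F statistic, and 95% intervals from its degrees of freedom. Alternatives included other scalings, DESeq2 1.42.0, other filters, the replicate letter as a block and leaving out each library. The fits were tested on simulated data. Wilson intervals (scipy 1.17.1) cover counting error only, without molecular identifiers. No pair of libraries agreed within sampling noise. The closest pair crossed the groups, control A with *elt-2* RNAi A, with a chi-square of their counts per degree of freedom of 39.3. Within a group the closest pair was *elt-2* RNAi A with *elt-2* RNAi C, at 114. The study gives the libraries as biological replicates.

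The members and lists were chosen with earlier results of these data known. Named are the 10 genes, *elt-2*, called genes of the lists and, per list, the 2 uncalled genes of highest mean CPM. Overlapping and marker genes were added. *acl-10* was not matched.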

Additional observations from a re-analysis of the deposited data

How the results depend on the processing

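With 3 libraries a group, the intervals of the uncalled genes run from near 0 to falls of more than 1.5 on the log2 scale, and *fat-7* lies under the depth. All 9 genes tested had a log2 fold change below 0 under every alternative that gave one. Of 140 values for these genes and *elt-2*, 132 were classed as the same, 7 moved and 1, *fat-6* without *elt-2* RNAi B, lost its call. The direction was reversed in 0 of them. For values with a test, the same means that direction and call were kept. The difference of mean log2(CPM + 1) has no test. There, a shift under the mean SD within groups counted as the same and a larger one as moved. The 7 all came from the difference of mean log2(CPM + 1) by library size, which changes both the scaling and the pseudocount. Library size alone took *fat-3* from -0.76 to -0.32 (-0.26 with the pseudocount) and *fat-6* from -2.54 to -2.06 (-1.61). The number of the 10 genes called lower ranged from 0 to 1 when a library was left out and was 1 under every other alternative. The number of the other fatty acid genes called lower was 1, and moved to 0 with library size scaling, a mean count of at least 10 or an adjusted p under 0.05, and to 2, *elo-1* being the second, with the DESeq2 Wald test, every gene with at least 1 count, or the replicate block, and it ranged from 0 to 2 when a library was left out. The causes were not tested. Deviations of same-letter libraries correlated at 0.35 (A), 0.42 (B) and 0.01 (C). Control C correlated best with *elt-2* RNAi A (0.35), and the remaining pairs of unlike letters ranged from -0.56 to 0.07. These values do not settle whether the letters mark pairs. The study's methods describe no block, so the letter entered only as an alternative. With the letter as a block, *fat-6* had a log2 fold change of -2.45 (adjusted p = 0.00811, edgeR), 1 of the 10 genes was called lower, and the calls over all genes moved from 263 to 444 lower and from 20 to 51 higher. These counts were 149 and 52 with library size scaling, 518 and 90 with DESeq2, 790 and 238 of 17388 genes with at least 1 count, 236 and 12 at a mean count of 10, 132 and 7 at an adjusted p under 0.05, and 77 to 520 and 3 to 63 when a library was left out.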
